A study of Mus musculus with 16 samples.

Results

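The genes described here are the 8 central and anterior members of the mouse Hoxb cluster, Hoxb1 to Hoxb8, and 2 anterior genes of the Hoxd cluster, Hoxd3 and Hoxd4. They were chosen by name. Of these 10 genes, 8 have a probe set that the array's annotation gives to that gene alone, out of 18193 genes measured in this way. Hoxb3 and Hoxb4 have 2 such probe sets and the other 6 genes have 1. Hoxb8 and Hoxd4 are covered only through probe sets shared with a neighbour, 1 shared by Hoxb7 and Hoxb8 and 2 shared by Hoxd3 and Hoxd4, so their levels cannot be separated from those of Hoxb7 and Hoxd3.

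The 16 samples come from mouse embryos at E11.5, the embryonic stage at which the bud has just entered the mesenchyme, and form 4 groups, each array being a separate sample of embryonic kidney tissue. The first holds 4 samples of wild-type ureteric bud (UB), the epithelial outgrowth that branches into the collecting ducts, each pooled from 3 to 9 buds freed by hand after collagenase treatment. The second holds 5 samples of metanephric mesenchyme (MM) from embryos null for both Hoxa11 and Hoxd11, lifted by laser capture from sections of urogenital ridges. The third holds 4 samples of wild-type MM, lifted by laser capture from sections of kidney rudiments, each pooled from 3 to 4 mesenchymes. The fourth holds 3 samples of wild-type MM, each from an individual mesenchyme freed by hand after the same enzyme treatment. No strain, sex or litter is given in the sources used here, and the null and wild-type captures differ in the starting piece of tissue as well as in genotype. Values are deposited MAS5 signals, a linear brightness per probe set. Differences are on the scale of log2(signal + 36.3), tested with limma 3.58.1 and adjusted over all tested probe sets with the Benjamini-Hochberg method, and they understate changes of dim genes.

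Hox genes encode homeodomain transcription factors and lie in clusters in which gene order follows the order of expression along the body axis. The genes at the Hox1 end respond first and most readily to retinoic acid and act mainly in the hindbrain and anterior trunk, while the genes at the other end pattern the posterior trunk. Paralogs are the genes at the same position in different clusters. In the kidney, the Hoxb7 promoter is widely used to drive transgenes in the Wolffian duct and the ureteric bud, and the Hox11 paralogs are required in the mesenchyme.

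The labelled tissues carried their markers. All 8 bud markers, Ret and Calb1 among them, were higher in UB than in hand-dissected MM, with summed signals of 122836 to 144439 in UB and 1299 to 1574 in hand-dissected MM. Of 8 nephron progenitor markers, 7 were tested and 6 were lower in UB, with sums of 1349 to 2031 in UB and 65985 to 82584 in hand-dissected MM; Cited1 was higher in UB, and Osr1 lay below the array median on all arrays of both groups. The captured mesenchymes held more bud signal than the hand-dissected ones, with bud marker sums of 6402 to 13731 in null captures, 6333 to 37831 in wild-type captures and 1299 to 1574 in hand-dissected MM. Null replicate 1 stood apart from its group, with a median correlation of 0.896 to the other null arrays, where the others had 0.928 to 0.933. The median signal of an array lay between 112.7 and 209.2, both ends being null captures. Null replicate 1 stood at 209.2 and the other null captures at 112.7 to 128.9, against 162.8 to 182.3 in wild-type captures. Null captures had 1 of 6 tested macrophage markers lower than wild-type captures (Tyrobp), with sums of 1408 to 12785 in null captures and 9857 to 21360 in wild-type captures. Of the 6, 5 had an unadjusted limma p below 0.05, and their median difference was -1.93.

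RefSeq (GRCm38.p6) start-site windows of 300 bases, 250 before and 50 after the start, were at hand for 5 of the 10 genes. The 3 of them that have a probe set of their own are printed here because all 3 differed between bud and mesenchyme, Hoxb1 one way and Hoxb4 and Hoxd3 the other. All are on the plus strand, 5′ to 3′, and capitals mark letters matching TGATNNAT (the motif bound by Hox and Pbx proteins together), AGGTCA (a half-site of nuclear receptors such as those for retinoic acid) or TTTATG (bound by the Cdx factors), on either strand. 
Hoxb1, chr11:96365508-96365807: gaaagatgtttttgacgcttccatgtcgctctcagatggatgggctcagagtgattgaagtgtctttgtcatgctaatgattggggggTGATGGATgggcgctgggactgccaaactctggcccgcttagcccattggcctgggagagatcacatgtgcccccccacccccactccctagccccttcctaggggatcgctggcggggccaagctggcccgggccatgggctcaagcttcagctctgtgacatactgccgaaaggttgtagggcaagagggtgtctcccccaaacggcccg
Hoxb4, chr11:96318017-96318316: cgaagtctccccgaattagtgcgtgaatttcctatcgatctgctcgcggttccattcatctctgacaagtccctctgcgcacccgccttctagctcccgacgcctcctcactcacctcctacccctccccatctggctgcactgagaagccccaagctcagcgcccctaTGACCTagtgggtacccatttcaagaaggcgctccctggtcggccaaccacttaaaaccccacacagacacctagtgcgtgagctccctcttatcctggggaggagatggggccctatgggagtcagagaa
Hoxd3, chr2:74711743-74712042: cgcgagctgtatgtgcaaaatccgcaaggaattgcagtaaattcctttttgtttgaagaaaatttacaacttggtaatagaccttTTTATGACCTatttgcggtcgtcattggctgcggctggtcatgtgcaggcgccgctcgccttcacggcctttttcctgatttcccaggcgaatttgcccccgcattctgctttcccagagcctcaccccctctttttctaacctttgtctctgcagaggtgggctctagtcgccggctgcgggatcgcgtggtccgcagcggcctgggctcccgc
The Hoxb1 window holds 1 match, to TGATNNAT, a motif found in 8.85% of 32851 start-site windows of this length. The Hoxb4 window holds 1 match, to AGGTCA, found in 16.3% of windows. The Hoxd3 window holds 1 match to TTTATG, found in 11.9% of windows, which overlaps 1 match to AGGTCA. These matches describe letters in the windows and do not show binding.

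UB was set against hand-dissected MM to ask which genes differ between these tissue samples. Hoxb4, Hoxb6 and Hoxd3 were higher in the bud and Hoxb1 was lower, while Hoxb2, Hoxb3 and Hoxb5 did not pass the test. Of the 7 genes tested, 3 were thus called higher and 1 lower, where 13.9% and 14.6% of all 12435 tested genes were called higher and lower. The median difference of the 7 was 0.79, against 0.01 over all tested genes. Every UB array lay above every MM array for 4 of the 7 and below for 1, where 17.5% and 18.8% of all tested genes did so. In such bulk samples, fewer expressing cells and less RNA per cell cannot be told apart. Markers of other cells were also lower in UB, 4 of 4 tested for endothelium, 4 of 5 for erythroid cells and 4 of 5 for macrophages. Of 7 tested neuronal and neural crest markers, 4 were lower and 1 higher. The part of such cells in the member differences was not tested.

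Hoxb1, which gives a hindbrain segment its identity, was the one tested member lower in the bud. Its probe set (1453501_at) had signals of 55.0, 31.9, 45.0 and 39.5 in UB, against 993, 920 and 421 in hand-dissected MM. All UB arrays lay below the median of their array, which ran from 126.8 to 132.9 in UB, and the groups were far apart. The log2 difference was -3.28 ± 0.32 SE (limma adjusted p = 1.65e-05). With the UB arrays set to their array medians, Hoxb1 was at least 5.59-fold lower in UB than in hand-dissected MM, and the bounds given for other genes below the array median throughout a group were made in the same way.

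Hoxb4, known for expanding blood stem cells when overexpressed, went the opposite way. Its probe set 1460379_at had signals of 5418, 5087, 5587 and 5185 in UB, against 1838, 1001 and 896 in hand-dissected MM. The UB arrays lay close together and above every MM array, at 5319 ± 226 (SD, n = 4) and 1245 ± 516 (SD, n = 3). The log2 difference was 2.13 ± 0.25 SE (limma adjusted p = 7.35e-05), the largest increase among the tested members. Its second, dimmer probe set (1451761_at) averaged 216 in UB and 81.9 in hand-dissected MM, and it also passed (log2 difference 1.22 ± 0.39 SE, limma adjusted p = 0.0407). Its groups overlapped, with UB replicate 1 at 143.8 and MM replicate 5 at 157.1, and 1 of the 3 MM arrays was above its array median.

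Hoxb6 (1451660_a_at), a central Hoxb gene, had signals of 2683, 2798, 2916 and 3254 in UB, against 1062, 1163 and 695 in hand-dissected MM. The lowest UB array was above the highest MM array by more than the spread of either group, and the log2 difference was 1.57 ± 0.23 SE (limma adjusted p = 0.000366). Hoxd3 (1437664_at), which acts in forming the first neck vertebra, had signals of 5094, 3912, 2669 and 2649 in UB, against 1534, 1981 and 1451 in hand-dissected MM. Its groups did not overlap either, but its UB arrays were more spread, and the log2 difference was 1.06 ± 0.27 SE (limma adjusted p = 0.0135). Without MM replicate 7 the Hoxd3 call was lost (log2 difference 0.97, adjusted p = 0.0647), as it was in a fit of all 16 arrays (adjusted p = 0.0872).

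The remaining tested members differed less. Hoxb2 (1449397_at), which acts with Hoxb1 in facial motor neurons, had signals of 3273, 4880, 6243 and 5692 in UB, against 3123, 3562 and 1971 in hand-dissected MM. UB replicate 1 lay within the MM range and the other UB arrays above it. The log2 difference was 0.79 ± 0.28 SE with a 95% interval of 0.19 to 1.40 (limma adjusted p = 0.0574), and the call was gained without UB replicate 1 (0.98, adjusted p = 0.00918), without MM replicate 6 (0.97, adjusted p = 0.0499) and after centring each array on its median (0.93, adjusted p = 0.0273). Hoxb5 (1418415_at), needed by the neural crest cells that colonise the gut, had 4280 to 5747 in UB and 3308 to 3819 in hand-dissected MM. These ranges did not overlap, yet the difference of 0.42 (95% interval 0.00 to 0.85) did not pass (limma adjusted p = 0.137). Set against the 7 wild-type mesenchyme arrays, captured and hand-dissected together, Hoxb5 did pass (0.55, adjusted p = 0.0250). Hoxb3 (1456229_at), a paralog of Hoxd3, had 3633 to 5141 in UB and 2381 to 4250 in hand-dissected MM, which overlap (log2 difference 0.43, 95% interval -0.09 to 0.95, limma adjusted p = 0.214). Its second probe set (1427605_at) differed by 0.31 (limma adjusted p = 0.355).

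Hoxb7 could not be read from its own probe set (1427494_at). Its signals were 23.3 to 42.3 in UB, 2.90 to 94.8 in null captures, 11.4 to 100.2 in wild-type captures and 3.40 to 72.5 in hand-dissected MM. Each of these lay below the median of its array, so Hoxb7 was not tested; without the filter on dim probe sets it differed by -0.03 ± 0.33 SE between UB and hand-dissected MM (limma adjusted p = 0.976). The probe set shared by Hoxb7 and Hoxb8 (1452493_s_at) had signals of 657, 841, 1102 and 1332 in UB, against 508, 392 and 380 in hand-dissected MM. The UB arrays were all higher (log2 difference 1.10 ± 0.27 SE, limma adjusted p = 0.0105), and this value belongs to the pair, not to either gene. The brighter probe set shared by Hoxd3 and Hoxd4 had 957, 947, 810 and 690 in UB, against 514, 439 and 308 in hand-dissected MM (log2 difference 0.97 ± 0.24 SE, limma adjusted p = 0.0117). The dimmer one had 64.6 to 207 in UB and 8.60 to 50.3 in hand-dissected MM, where every array lay below its array median, as did 1 of the 4 UB arrays, so no fold is given. In RefSeq the span of Hoxd3 contains Hoxd4, and that of Hoxb3 contains Hoxb4, so transcripts of these neighbours may share sequence.

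**Figure D1:**
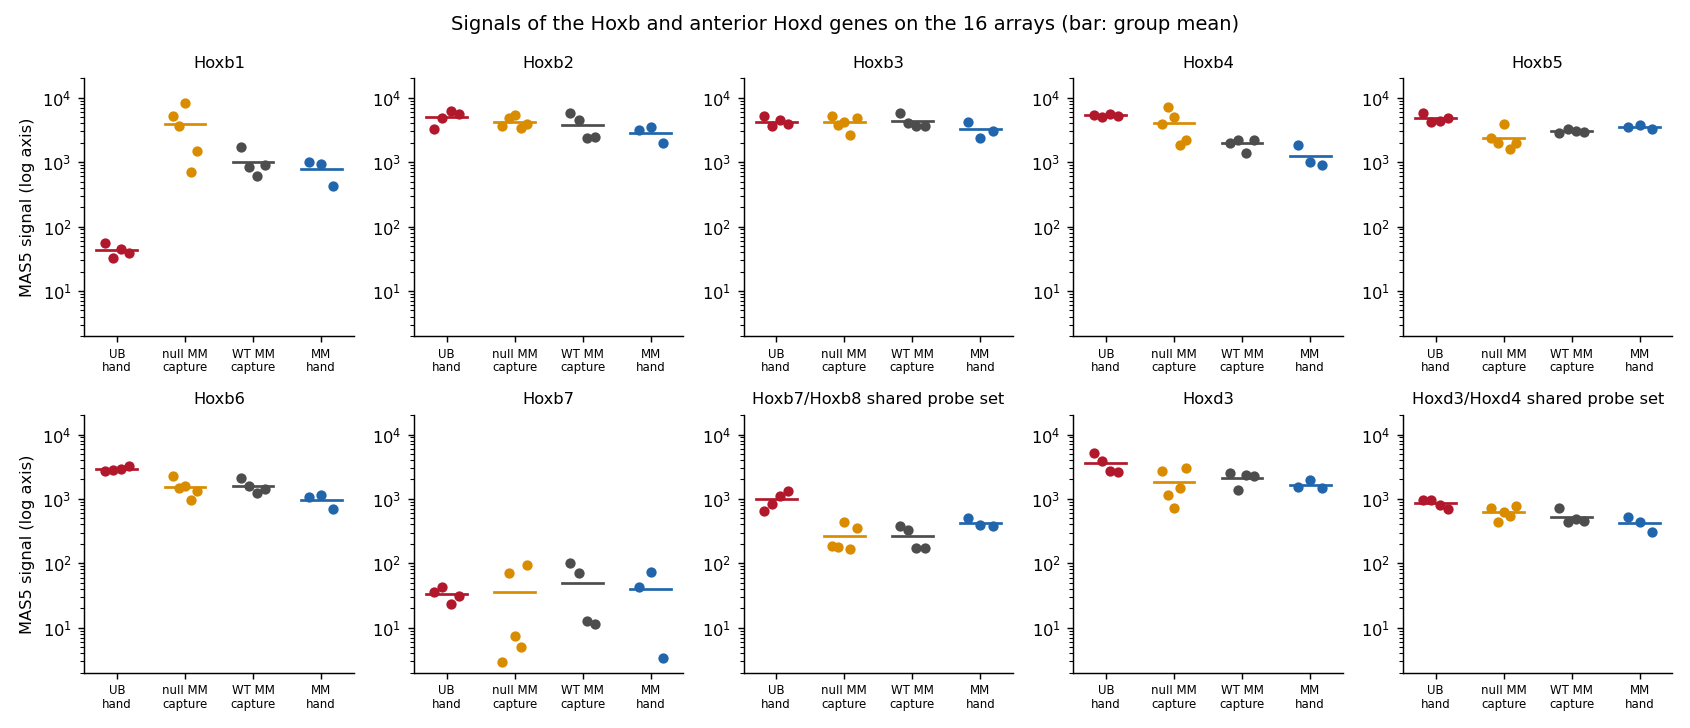
MAS5 signals on a log axis for each array, in UB, null captures, wild-type captures and hand-dissected MM; points are arrays and bars are group means. Hoxb1 is lowest in UB (31.9 to 55.0), Hoxb4 and Hoxb6 are higher in UB than in hand-dissected MM, and the single Hoxb7 probe set lies near background in all groups.

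RNA quality moved with this contrast by one measure and not clearly by another. The Gapdh signal from 3′ over 5′ probes was 6.53 to 12.2 in UB and 22.1 to 69.3 in hand-dissected MM, while that of Actb was 10.9 to 16.3 in UB and 11.1 to 17.9 in hand-dissected MM. In wild-type captures the Gapdh ratio was 14.3 to 22.9 and the Actb ratio 14.8 to 20.9. In null captures the Gapdh ratio was 18.4 to 26.3 and the Actb ratio 17.5 to 27.6. The part of these ratios in the member differences was not tested in any comparison.

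Along the Hoxb cluster the sign of the difference changed between Hoxb2 and Hoxb1, at its Hox1 end. Hoxb6, Hoxb5, Hoxb4, Hoxb3 and Hoxb2 all had positive differences, of which only those of Hoxb6 and Hoxb4 were called. Hoxb1, last in that order, had a negative difference, which was called. Skap1, the next gene listed beyond Hoxb1, which encodes an adaptor of immune cell signalling, was higher in the bud, at 2137 ± 259 in UB (SD, n = 4) and 548 ± 94.8 in hand-dissected MM (SD, n = 3), a log2 difference of 1.90 ± 0.22 SE (limma adjusted p = 5.74e-05). Towards the other end, Hoxb9 had a negative difference too, which did not pass (-0.30 ± 0.25 SE, limma adjusted p = 0.431). Hoxb5os, a transcript antisense to the Hoxb5 region, stood at 17693 in UB and 18589 in hand-dissected MM (limma adjusted p = 0.844).

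The Hoxd cluster changed sign elsewhere. Hoxd1 (log2 difference 2.65 ± 0.40 SE, limma adjusted p = 0.000426), Hoxd3 and Hoxd8 (1.54 ± 0.18 SE, limma adjusted p = 5.83e-05) were higher in the bud, and Hoxd9 had 0.78 ± 0.29 SE (limma adjusted p = 0.0696). Beyond it Hoxd10 (-6.30 ± 0.37 SE), Hoxd11 (at least 3.33-fold lower) and Hoxd13 (-4.66 ± 0.56 SE) were lower, at limma adjusted p of up to 7.75e-05. Hoxb1 and its paralog Hoxd1, each at the Hox1 end of its cluster, were thus called in opposite directions.

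**Figure D2:**
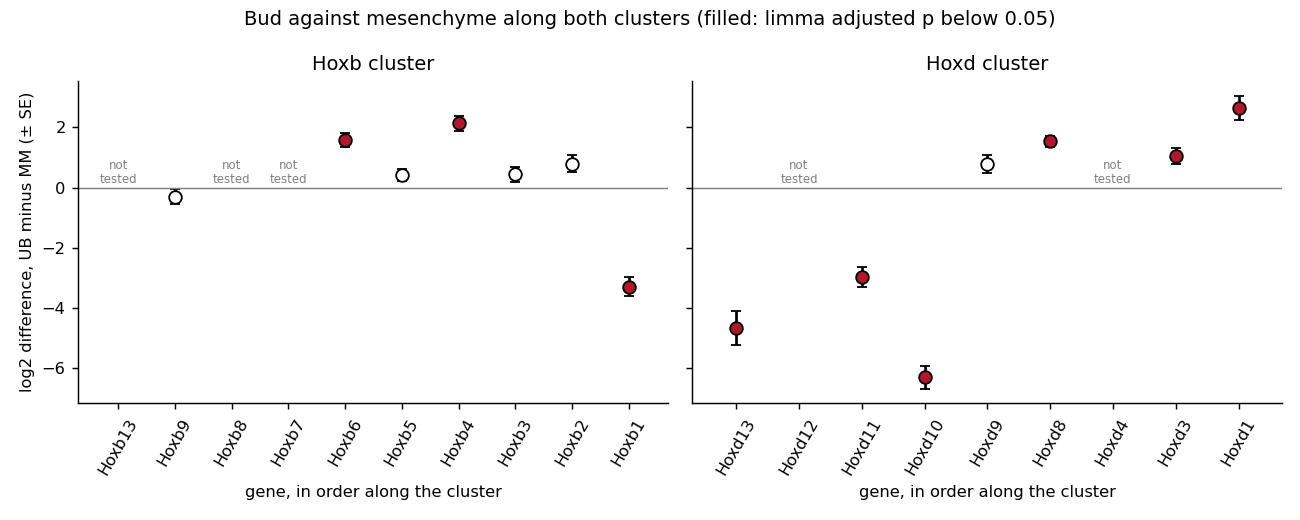
Log2 difference of UB minus hand-dissected MM (± SE) for each gene of the Hoxb and Hoxd clusters in genomic order, with filled points at a limma adjusted p below 0.05. Hoxb1 is at -3.28 at one end of Hoxb, and Hoxd1 at 2.65 at the same end of Hoxd; genes marked as not tested have no usable probe set of their own.

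The tested Hoxa and Hoxc paralogs of groups 2 to 6 had negative differences where the Hoxb genes had positive ones. For group 4, Hoxb4 had 2.13 and Hoxc4 had -3.16 ± 0.34 SE (limma adjusted p = 3.61e-05). For group 5, Hoxb5 had 0.42, while Hoxa5 had -2.13 ± 0.28 SE and Hoxc5 had -3.15 ± 0.29 SE (limma adjusted p = 0.000171 and 1.02e-05). For group 2, Hoxb2 had 0.79 and Hoxa2 had -0.93 ± 0.25 SE (limma adjusted p = 0.0167). For groups 3 and 6, Hoxa3 had -0.46 (limma adjusted p = 0.370) and Hoxc6 had -0.52 (limma adjusted p = 0.171), neither past the threshold. Of 13 other Hox genes of groups 1 to 8 on the list, 9 were tested, of which 2 were higher in UB (Hoxd1 and Hoxd8) and 5 lower, including Hoxc8, at least 17.1-fold lower (limma adjusted p = 3.80e-07). The differences between paralogs were not themselves tested.

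The genes that act with or on Hox genes gave the following counts for UB against hand-dissected MM. Of 8 tested genes of the TALE family, whose Pbx, Meis and Pknox proteins bind DNA beside Hox proteins, 0 were higher and 5 lower in the bud, with a median of -1.15. The 4 with the widest gaps were Meis1 (-6.13 ± 0.28 SE), Meis2 (-5.69 ± 0.25 SE), Pknox2 (-3.80 ± 0.27 SE) and Meis3 (-1.23 ± 0.33 SE), at limma adjusted p of up to 0.0173. Of 14 tested retinoid genes, 3 were higher and 3 lower. Aldh1a1 and Aldh1a3, enzymes that make retinoic acid, were higher, at 18083 and 18601 in UB and 41.3 and 111.5 in hand-dissected MM (at least 122.7-fold for Aldh1a1 and a log2 difference of 7.00 ± 0.32 SE for Aldh1a3, limma adjusted p of up to 4.09e-08). Aldh1a2, another such enzyme, was lower, at 322 in UB and 15123 in hand-dissected MM (-5.51 ± 0.32 SE, limma adjusted p = 2.24e-07). Of 22 tested Polycomb and trithorax genes, which keep Hox genes silent or active, 2 were higher (Cbx7 at least 2.42-fold, Men1 at 1.19 ± 0.32 SE) and 2 lower (Kmt2a at -0.88 ± 0.28 SE, Ezh1 at -0.74 ± 0.24 SE), with limma adjusted p of up to 0.0431. Of 5 tested upstream regulators, none passed with limma, and 0 had an unadjusted p below 0.05.

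Null captures were set against wild-type captures to compare the genotypes. The starting piece of tissue differs between them too, so an effect of losing Hoxa11 and Hoxd11 cannot be told apart from one of tissue. The targeted Hoxa11 was lower, at 91.8 to 197 in null captures and 525.5 to 840 in wild-type captures (log2 difference -2.23 ± 0.34 SE, limma adjusted p = 0.0114). Hoxd11 stood at 192 to 482 in null captures and 318 to 587 in wild-type captures (limma adjusted p = 0.635), and since the sources used here do not place its probes relative to the targeted part, this value checks nothing. Of the 7 members tested, 0 were called with limma in either direction, where 1.74% of all 12161 tested genes were called, and 2 had an unadjusted p below 0.05. Those were Hoxb1 and Hoxb4. The median difference of the 7 was -0.07, against -0.10 over all tested genes.

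Hoxb1 had signals of 5174, 3627, 8378, 715 and 1513 in null captures, against 1733, 842, 614 and 907 in wild-type captures. Null replicates 1, 2 and 3 lay above every wild-type array and replicates 4 and 5 within the wild-type range. The log2 difference was 1.53 ± 0.62 SE, with a 95% interval of 0.17 to 2.88 (unadjusted p = 0.0304, limma adjusted p = 0.216). Hoxb4 had signals of 3860, 7104, 4999, 1846 and 2248 in null captures, against 1963, 2232, 1392 and 2250 in wild-type captures. Again null replicates 1, 2 and 3 lay above every wild-type array and the other 2 within the range, and the log2 difference was 0.87 ± 0.37 SE (95% interval 0.06 to 1.69, unadjusted p = 0.0370, limma adjusted p = 0.233). The dimmer Hoxb4 probe set (1451761_at) was too dim to be tested here. It had 161.9, 251.8, 123.4, 109.3 and 66.3 in null captures, against 99.3, 164.9, 61.8 and 123.9 in wild-type captures. On it, only null replicate 2 lay above every wild-type array. Without null replicate 1 the differences were 1.31 for Hoxb1 (adjusted p = 0.227) and 0.85 for Hoxb4 (adjusted p = 0.211).

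The null captures also varied in their tissue markers. Nephron progenitor sums were 44876, 81375, 83335, 16016 and 39805 in null replicates 1 to 5, against 34469 to 58953 in wild-type captures. Null replicate 4 lay below that wild-type range, replicates 1 and 5 within it and replicates 2 and 3 above it. Neuronal and neural crest sums, over 8 measured markers of 10 listed, were 58886, 25114, 12969, 56291 and 10346 in null replicates 1 to 5, against 6765 to 46294 in wild-type captures. Of these markers 1 of 7 tested was higher in the null, the filament gene Ina (at least 5.56-fold, limma adjusted p = 0.0391), and in wild-type captures Ina and Sox10 lay below the array median on all arrays. Of the 7, 4 had an unadjusted limma p below 0.05. The median difference of the 7 was 1.46, with Isl1 alone negative (-1.12). Null replicate 4 had a somite and muscle sum of 19893, where the other null captures had 2686 to 5767 and the wild-type captures 2235 to 7147. Null replicate 5 had a gonad and adrenal sum of 8823, where the other null captures had 541 to 725 and the wild-type captures 514 to 725. The part of these contents in the spread of Hoxb1 and Hoxb4 was not tested.

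**Figure D3:**
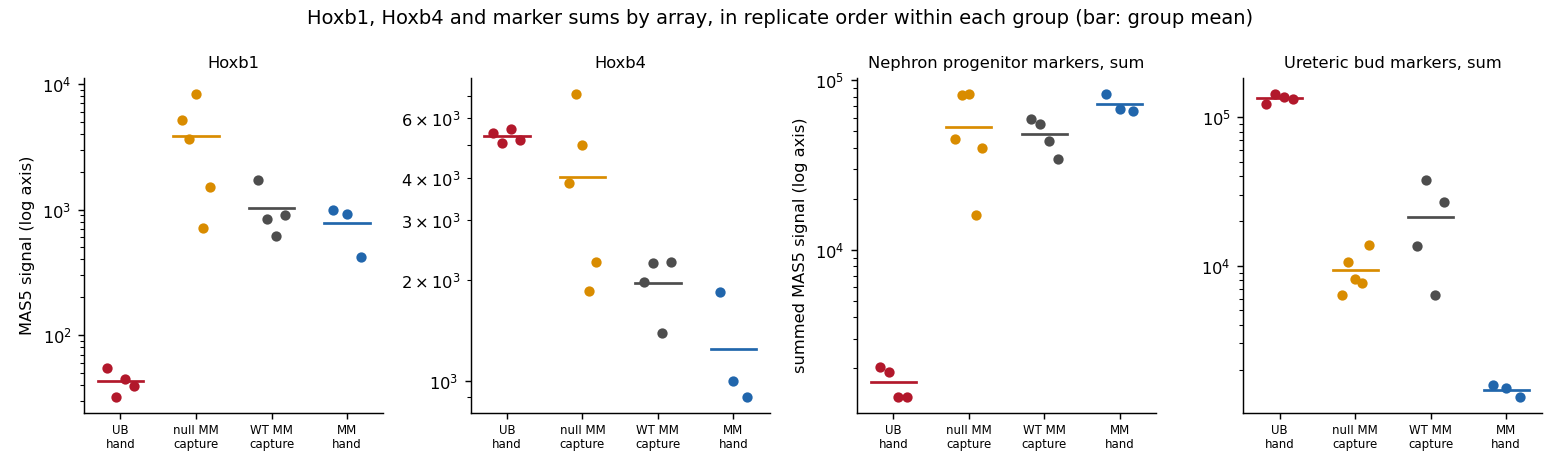
Signals of Hoxb1 and Hoxb4 and summed signals of nephron progenitor and ureteric bud markers on log axes, with arrays in replicate order within each group and bars at the group mean. Null replicates 1, 2 and 3 are above all wild-type captures for Hoxb1 and for the brighter Hoxb4 probe set, which is the one shown. Null replicate 4 has the lowest progenitor sum among the captures (16016).

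Hoxb5 had signals of 2378, 1988, 3954, 1606 and 1996 in null captures, against 2811, 3329, 3090 and 2982 in wild-type captures. Of the null arrays 4 lay below every wild-type array and replicate 3 above them all, at 2384 ± 919 (SD, n = 5) against 3053 ± 217 (SD, n = 4). The log2 difference was -0.42 ± 0.25 SE (95% interval -0.98 to 0.14, limma adjusted p = 0.405). Hoxd3 had signals of 2727, 1156, 733, 1490 and 2993 in null captures, against 2508, 1367, 2329 and 2247 in wild-type captures (95% interval -1.23 to 0.52, limma adjusted p = 0.673). Its null arrays lay on both sides of the wild-type range. Hoxb2 had 3437 to 5476 in null captures and 2400 to 5858 in wild-type captures, wholly within that range (95% interval -0.37 to 0.89, limma adjusted p = 0.674).

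The arrays of Hoxb3 and Hoxb6 overlapped broadly. Hoxb3 stood at 4143 ± 1007 in null captures (SD, n = 5) and 4313 ± 1029 in wild-type captures (SD, n = 4), with a 95% interval of -0.58 to 0.45 (limma adjusted p = 0.903). Its second probe set averaged 343 in null captures and 229.7 in wild-type captures, with a 95% interval of -0.67 to 1.44 (limma adjusted p = 0.713). Hoxb6 stood at 1524 ± 460 in null captures and 1589 ± 368 in wild-type captures, with a 95% interval of -0.69 to 0.52 (limma adjusted p = 0.902). Centring each array on its median raised the member differences in this comparison by 0.30, which turned the signs of Hoxb3 and Hoxb6, and quantile normalization turned that of Hoxb6, with none called. The shared Hoxb7 and Hoxb8 probe set averaged 265 in null captures and 264 in wild-type captures (limma adjusted p = 0.988), and the brighter shared Hoxd3 and Hoxd4 probe set 619 in null captures and 523 in wild-type captures (limma adjusted p = 0.720). In none of the 7 members did the null and wild-type arrays separate fully, against 9.03% of all tested genes.

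Of the other listed genes, 0 of 11 tested Hox genes of groups 1 to 8, 0 of 7 TALE genes, 0 of 12 cluster neighbours, 0 of 3 upstream regulators and 0 of 21 Polycomb and trithorax genes passed in this comparison with limma, and 1, 0, 2, 1 and 2 of them had an unadjusted p below 0.05. Of 13 tested retinoid genes 1 was lower in the null, Aldh1a3, an enzyme of retinoic acid synthesis, at 173 ± 114 in null captures (SD, n = 5) and 1268 ± 921 in wild-type captures (SD, n = 4; limma adjusted p = 0.0436). Aldh1a3 was higher in UB than in hand-dissected MM, and the 8 bud markers had a median difference of -0.72 between null and wild-type captures, with 0 called by limma, 2 at an unadjusted p below 0.05, and sums of 6402 to 13731 in null captures and 6333 to 37831 in wild-type captures. The part of the bud signal in the Aldh1a3 difference was not tested.

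Wild-type captures were set against hand-dissected MM to compare the methods of isolation. Of the 7 members tested, 0 were called with limma in either direction, where 23.5% of all 12172 tested genes were called, and 2 had an unadjusted p below 0.05, Hoxb4 and Hoxb6. Hoxb6 had signals of 2089, 1609, 1229 and 1428 in wild-type captures, against 1062, 1163 and 695 in hand-dissected MM. These did not overlap, as in 34.1% of all tested genes, and the log2 difference was 0.69 ± 0.26 SE (95% interval 0.11 to 1.27, limma adjusted p = 0.0767). Hoxb4 had signals of 1963, 2232, 1392 and 2250 in wild-type captures, against 1838, 1001 and 896 in hand-dissected MM, with capture 3 inside the hand-dissected range (0.69 ± 0.29 SE, 95% interval 0.06 to 1.32, limma adjusted p = 0.103). Hoxb4 passed without hand-dissected replicate 5 (1.00, adjusted p = 0.0261).

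The captures also held bud signal. Of 8 bud markers 7 were higher in wild-type captures, and their sums were 13585, 37831, 6333 and 26871 in captures 1 to 4, against 1299 to 1574 in hand-dissected MM, where Cdh1, Gata3 and Lhx1 lay below the array median on all arrays. Hoxb4 and Hoxb6 were both lowest in capture 3, which had the lowest bud sum. Hoxb4 was highest in capture 4 and Hoxb6 in capture 1, and the bud sum was highest in capture 2. Of 5 tested erythroid markers 4 were also higher in wild-type captures, as were 2 of 6 macrophage markers. Of 6 tested nephron progenitor markers 1 was lower, Six2 (-2.28 ± 0.25 SE, limma adjusted p = 0.000345). The part of the bud signal and of these other contents in the member differences was not tested. For the other members the 95% intervals were -0.47 to 1.20 for Hoxb1, -0.41 to 1.05 for Hoxb2, -0.10 to 0.96 for Hoxb3, -0.60 to 0.17 for Hoxb5 and -0.23 to 0.88 for Hoxd3. The second Hoxb3 probe set gave -0.51 (limma adjusted p = 0.306), against 0.43 from the brighter one (limma adjusted p = 0.218), so the direction of Hoxb3 was not settled here. The probe set shared by Hoxb7 and Hoxb8 gave -0.68 ± 0.34 SE (limma adjusted p = 0.161). The brighter one shared by Hoxd3 and Hoxd4 gave 0.29 ± 0.29 SE (limma adjusted p = 0.498). Of the listed genes, 0 were higher and 1 lower of 9 tested Hox genes of groups 1 to 8, 1 and 0 of 12 cluster neighbours, 1 and 2 of 7 TALE genes, 4 and 1 of 13 retinoid genes, 0 and 1 of 4 upstream regulators, and 2 and 4 of 21 Polycomb and trithorax genes.

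**Figure D4:**
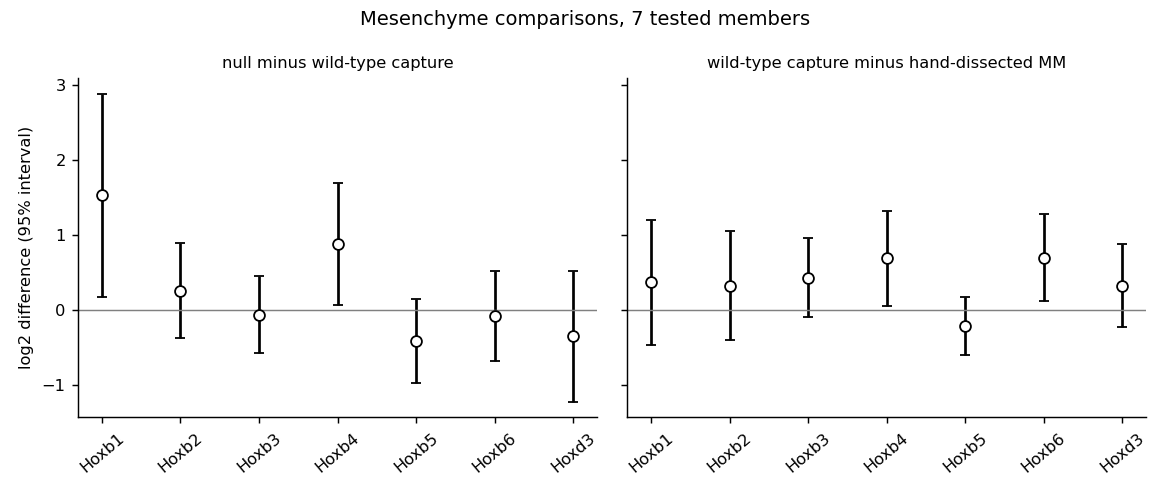
Log2 differences with 95% intervals for the 7 tested members, null minus wild-type captures on the left and wild-type captures minus hand-dissected MM on the right. Open points mark genes not past the threshold, which holds for all 7 in both comparisons; Hoxb1 has the widest interval, 0.17 to 2.88, in the null comparison.

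Set in order of their mean signal over the 4 groups, the members fell into few patterns. Hoxb1 was highest in null captures (3881 ± 3065 SD, n = 5), then wild-type captures (1024 ± 489 SD, n = 4), hand-dissected MM (778 ± 311 SD, n = 3) and UB (42.9 ± 9.72 SD, n = 4), and its UB arrays alone did not overlap the neighbouring group. Hoxb6 (2912 ± 246 SD, n = 4) had its highest mean in UB, and its UB arrays overlapped no other group. Hoxb5 (4793 ± 679 SD, n = 4) likewise had all UB arrays above those of the other groups. Hoxd3 (3581 ± 1169 SD, n = 4) also had its highest mean in UB, above all wild-type MM arrays, but null captures 1 and 5, at 2727 and 2993, lay above the lowest UB arrays, at 2669 and 2649. Hoxb4 and Hoxb2 had their highest means in UB as well, at 5319 and 5022, and overlapped the null captures, at means of 4011 and 4269. Hoxb3 had its neighbouring groups overlapping throughout, between means of 4313 in wild-type captures and 3222 in hand-dissected MM. Among the 7 tested members the spread among null captures was widest for Hoxb1, with a coefficient of variation of 79.0%, against 47.7% in wild-type captures. For Hoxb4 it was 53.4% in null and 20.4% in wild-type captures, and for Hoxb5 38.5% in null and 7.11% in wild-type captures. For Hoxd3 it was 54.5% in null and 24.1% in wild-type captures, and for Hoxb6 30.2% in null and 23.1% in wild-type captures. Hoxb3 was nearly level, at 24.3% in null and 23.9% in wild-type captures. Hoxb2 went the other way, at 20.4% in null and 44.5% in wild-type captures.

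Across the 16 arrays, Hoxb4 and Hoxb6 varied most alike among the members (Pearson r = 0.776), followed by Hoxb2 with Hoxb6 (0.687) and Hoxb2 with Hoxb4 (0.658), while Hoxb1 ran against Hoxd3 (-0.639) and Hoxb5 (-0.607). These are descriptions over arrays that share their 4 groups. Among 13496 other genes, those most like Hoxb1 were Sulf2, a sulfatase acting on heparan sulfate (r = 0.960), and Pdgfrl (0.957). Those most like Hoxb4 were Cxcr4, a chemokine receptor (0.914), and Lsr, a protein of tricellular junctions (0.911), and those most like Hoxb6 were Bnipl (0.916) and Ocln, the tight junction protein occludin (0.912). For Hoxb5 they were Cdc14b (0.916) and 2810459M11Rik (0.895), for Hoxb2 Slc29a2 (0.860) and Exo1 (0.856), for Hoxd3 Dennd1b (0.857) and Clic6 (0.853), and for Hoxb3 Tmprss6 (0.788) and Cstf2 (0.784).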

How the data were processed

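The authors deposited intensity values on a linear scale, computed with MAS5 from Affymetrix MOE430_v2 arrays per the submitters' processing notes, with 1 array per sample, after 2 rounds of RNA amplification per the labels' protocols. No detection calls were used. The arrays already share one trimmed mean, so no further normalization was applied. Of 45101 probe sets, 64 controls were removed, and 34945 of the rest have 1 gene symbol, 932 several and 9160 none here; 34741 matched the mouse gene table (GRCm38.p6), which changed 0 symbols.

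Signals were converted to log2(signal + 36.3), the offset being the 25th percentile. Each gene was read through its probe set whose log2 mean was highest across the 16 arrays. A probe set was tested when it exceeded the array median on at least 3 arrays (comparisons with hand-dissected MM) or 4 (null against wild-type captures). Each comparison was fitted on its own arrays with limma 3.58.1 in R 4.3.3 (lmFit, eBayes with trend), with Benjamini-Hochberg adjustment over all tested probe sets and a threshold of 0.05. The fit was tested on simulated data, where it missed most of the smaller changes added in every comparison and, between null and wild-type captures, many larger ones, so a gene that is not called may still differ. Tables and figures used Python 3.11.15, pandas 2.3.3, numpy 2.4.6 and matplotlib 3.10.9. The number of arrays limits the precision. No label states slides or scan dates, so no batch was tested, and p-values measure the spread between these samples.

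The naming rule covered all members, list genes past the threshold (at most the 4 largest per list) and markers. It also covered the targeted genes and the 2 genes most correlated with each tested member. Not every list gene within the rule is named. For wild-type captures against hand-dissected MM most are given as counts only. Other paralogs and cluster genes outside this rule were named after their values were seen. Members and lists were chosen with earlier results of these data known. Alternatives changed the offset, normalization, filter, arrays, variance trend, mesenchyme, replicate block and probe set.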

Additional observations from a re-analysis of the deposited data

How the results depend on the processing

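Over the 347 recomputed differences of single members, none of those called reversed sign, 340 kept their side of the threshold, 5 gained a call and 2 lost it; the report names these 7. The count of called members ran from 3 to 5 for UB against hand-dissected MM, and was 0 in each of the 18 alternatives for null against wild-type captures. It was 0 to 1 on leaving out single arrays for wild-type captures against hand-dissected MM. Hoxb1 in UB against hand-dissected MM passed in each of 16 alternatives, with a log2 difference of -4.07 to -2.55 that depended on the offset. Hoxb4 and Hoxb6 did so too, at 1.22 to 2.44 and 1.18 to 1.72.

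The number of called probe sets, the background of these counts, moved more, and the cause was not tested. A single fit of all 16 arrays gave 3580 in place of 5701 for UB against hand-dissected MM, 1793 in place of 411 for null against wild-type captures, and 2811 in place of 5866 for wild-type captures against hand-dissected MM. For null against wild-type captures, centring gave 207 (136 higher and 71 lower, against 138 and 273), no filter 256 and no intensity trend 215. Leaving out single arrays gave 3951 to 7845, 60 to 1866 and 3391 to 6037 in the same order of comparisons, with 1866 without null replicate 1 and 60 without wild-type capture 2. With the replicate number as a replicate block, in which null replicate 5 has no wild-type partner, the null comparison called 53 probe sets and 0 members, Hoxb1 standing at 1.75 (adjusted p = 0.197). Same-numbered null and wild-type captures had correlations of deviations of -0.05 to 0.07, and differently numbered ones of -0.17 to 0.23. With so few same-numbered pairs, these values cannot decide whether such samples were collected or handled together, and no label states it.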

Other observations

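Hoxd3os1, a transcript antisense to Hoxd3, was among the cluster neighbours measured in the mesenchymes. It was higher in wild-type captures than in hand-dissected MM, with means of 1596 ± 167 in wild-type captures (SD, n = 4) and 431 ± 122 in hand-dissected MM (SD, n = 3), which differ by 1.84 ± 0.25 SE on the log2 scale (limma adjusted p = 0.00101), and it was the one called gene of 12 tested cluster neighbours there. In null captures its signals were 19920, 524, 93.0, 724 and 13.8, against 1452, 1702, 1456 and 1774 in wild-type captures, values looked up after that call was seen, and null captures were not tested against hand-dissected MM. Null replicate 1 lay above every wild-type array and the other null arrays below them all, and the difference did not pass (-1.54 ± 1.32 SE, limma adjusted p = 0.570). Hoxd3 itself had 2727 in null replicate 1, inside the range of the null arrays. Without strand or probe positions, the signals of a gene and of its antisense partner cannot be compared further here.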
